A study of Mus musculus with 9 samples.

Results

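Kidneys carrying a DROSHA-E1147K transgene were compared with wild-type control kidneys, miRNA by miRNA. The comparison took every library labelled with either genotype, 3 transgene and 3 control of the 9 libraries in the series. The other 3 libraries were DROSHA knockout kidneys, which entered the fit and so also its read filter, its scaling and its estimate of spread. All were small RNA libraries of whole mouse kidney at embryonic day 16.5, so every value is an average over nephron progenitors, tubules, stroma, vessels and blood, in which fewer cells of a type and less of a miRNA per cell cannot be told apart. Reads carried 1607 known mouse miRNA names, of which 955 had enough reads to be tested. The labels do not name the promoter of the transgene, the cells that express it or the mouse strain. They also do not say whether the 3 libraries of each genotype are from different embryos, so the p-values reflect the spread among libraries, part or all of which may be technical. A small RNA library holds no Drosha mRNA, and the genotypes were not checked.

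DROSHA, a nuclear RNase III enzyme, cuts primary miRNA transcripts into hairpin precursors, which Dicer then trims to the mature duplex. E1147K replaces a glutamate of its RNase IIIb domain that takes part in metal binding, and is a recurrent somatic change in Wilms tumor, a kidney cancer of childhood that resembles fetal kidney. The names ending in 5p and 3p are the strands from the left and right arm of a hairpin, and bases 2 to 8 of the mature strand, the seed, are the main determinant of target choice.

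The sequences below are the mature strands of the miRNAs on which the comparison turns, from RefSeq (assembly GRCm38.p6), written 5′ to 3′ with the seed in capitals. The first set are strands that were lower in all transgene libraries than in all controls on the main scale, grouped with the relatives that share their seed, to show which names have the same predicted targets.
miR-146b-5p: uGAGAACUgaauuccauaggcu
miR-146a-5p: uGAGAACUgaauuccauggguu
miR-322-5p: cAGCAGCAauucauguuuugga
miR-16-5p: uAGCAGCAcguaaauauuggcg
miR-15b-5p: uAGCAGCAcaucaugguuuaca
miR-497a-5p: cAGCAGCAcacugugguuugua
miR-181a-5p: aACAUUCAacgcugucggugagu
miR-181b-5p: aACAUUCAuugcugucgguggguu
miR-181c-5p: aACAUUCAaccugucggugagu
miR-181d-5p: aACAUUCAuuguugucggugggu
miR-27b-3p: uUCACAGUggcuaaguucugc
miR-27a-3p: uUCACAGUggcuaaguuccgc
miR-132-3p: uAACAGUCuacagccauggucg
miR-212-3p: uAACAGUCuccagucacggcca
miR-221-3p: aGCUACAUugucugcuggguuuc
miR-222-3p: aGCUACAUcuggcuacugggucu

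The next set are strands that were higher in all transgene libraries, with miR-7a-5p beside miR-7b-5p because they differ at 1 of their first 23 bases. Those of miR-341, miR-666, miR-369, miR-431 and miR-127 come from the imprinted Dlk1-Dio3 region, and their seeds all differ.
miR-7b-5p: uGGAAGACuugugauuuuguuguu
miR-7a-5p: uGGAAGACuagugauuuuguugu
miR-142a-5p: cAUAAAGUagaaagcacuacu
miR-26b-3p: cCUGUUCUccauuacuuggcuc
miR-341-3p: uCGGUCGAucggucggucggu
miR-666-3p: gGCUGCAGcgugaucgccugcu
miR-369-3p: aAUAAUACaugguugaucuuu
miR-431-5p: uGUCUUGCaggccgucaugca
miR-127-3p: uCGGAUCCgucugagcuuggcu

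The last pair is a single sequence deposited under 2 names, which are encoded at different loci.
miR-199a-3p: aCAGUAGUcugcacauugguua
miR-199b-3p: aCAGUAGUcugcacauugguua

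Each of the 6 libraries held 25834937 to 34896599 reads of known miRNAs, under 1348 to 1401 names. These were 81.9%, 80.9% and 81.8% of all counted reads in controls and 78.4%, 76.9% and 79.1% in transgene libraries, lower in every transgene library (exact permutation test, two-sided p = 0.1, the smallest that 3 against 3 allows). Levels are given as CPM, reads per 1000000 known-miRNA reads after TMM scaling, and differences as log2 fold changes of transgene over control from edgeR. Markers of other tissues set some libraries apart. The liver miRNA miR-122-5p was at 11854 CPM in control 3 and 19084 CPM in transgene 2, against 700 to 2224 CPM in the other libraries. The summed level of the miR-290 and miR-302 clusters, which are active in the early embryo, was 170 CPM in control 3 and 213 CPM in transgene 1, against 10.4 to 24.5 CPM elsewhere. miR-206-3p, a skeletal muscle miRNA, was at 851 CPM in control 1 and 987 CPM in transgene 1, against 97.8 to 417 CPM elsewhere.

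No miRNA passed edgeR's quasi-likelihood test after Benjamini-Hochberg adjustment, where the lowest adjusted p was 0.398 (0 of 955 called, 0%). At an unadjusted p under 0.05 there were 84 miRNAs (8.8%), 50 of them higher with the transgene (5.24%) and 34 lower (3.56%). DESeq2 called 4 (0.419%), miR-146b-5p lower and miR-375-3p, miR-667-5p and miR-7b-5p higher. Leaving out single libraries changed the count of 84, to 37 for transgene 2, 48 for control 1, 51 for control 2 and 155 for knockout 3. For 229 miRNAs (24%) the levels of the 3 transgene libraries lay all above or all below those of the 3 controls, 114 of them higher (11.9%) and 115 lower (12%). Below, "did not overlap" has this meaning, and the miRNAs described are those that did not overlap, averaged at least 10 CPM and had the smallest unadjusted p, 12 in each direction, with others named as chosen after their values were seen.

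The direction of small differences depended on the scale. The median log2 fold change over all 955 miRNAs was -0.04 with TMM and 0.18 when counts were scaled to total miRNA reads instead. With that scaling the miRNAs at unadjusted p under 0.05 split into 93 higher and 6 lower, and with scaling to all counted reads into 74 higher and 11 lower. Abundant miRNAs lay lower than rare ones on the TMM scale. The 99 miRNAs with a mean of at least 1000 CPM had a median of -0.25, with 31 lower and 10 higher without overlap. The 200 miRNAs between 10 and 100 CPM had a median of 0.03, with 23 lower and 31 higher. With total miRNA reads the abundant miRNAs had a median of -0.04, with 12 lower and 14 higher, while those between 10 and 100 CPM had a median of 0.24. The TMM scale was set with the knockout libraries included. With TMM on the 6 libraries alone, the median over 916 miRNAs was 0.04, with 79 lower and 137 higher without overlap.

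**Figure D1:**
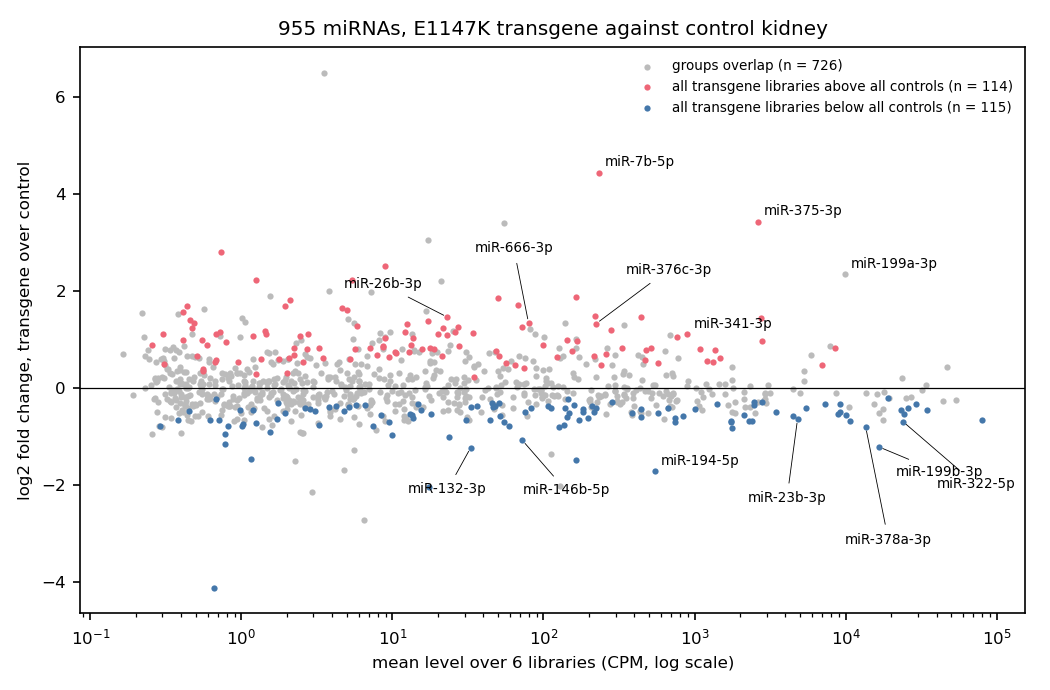
Log2 fold change of transgene over control against the mean level over the 6 libraries (CPM, log scale), 1 point per miRNA tested. Coloured points are the 114 miRNAs whose transgene libraries all lay above the controls and the 115 whose libraries all lay below, and the points above 1000 CPM fall mostly below 0 (median -0.25).

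Of the 12 named miRNAs that were higher, 8 belong to the Dlk1-Dio3 region of chromosome 12, a large cluster expressed from the maternal chromosome. miR-127-3p, which is transcribed antisense to the retrotransposon-derived gene Rtl1 (hairpin chr12:109592846-109592915, mm10), was at 5777, 5646 and 7084 CPM in controls 1 to 3 and at 9779, 12142 and 10705 CPM in transgene libraries 1 to 3. Its neighbour miR-431-5p (chr12:109590447-109590537) was at 1667, 1852 and 2124 CPM in controls and at 3705, 4613 and 2777 CPM in transgene libraries. For both, each transgene library lay above each control, and control 3 was the highest control. Their log2 fold changes were 0.82 (SE 0.29) and 0.98 (SE 0.34), with edgeR adjusted p = 0.529 for each.

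miR-341-3p, from an intron of the noncoding RNA gene Rian (chr12:109611500-109611595), was at 550, 550 and 606 CPM in controls and at 1170, 1557 and 954 CPM in transgene libraries. The controls were nearly level and transgene 2 was the highest library. The log2 fold change was 1.11 (SE 0.27), with the smallest p of the named miRNAs of this region (edgeR adjusted p = 0.458). miR-369-3p, from an exon of the noncoding RNA gene Mirg at the far end of the cluster (chr12:109743418-109743496), was at 238, 242 and 223 CPM in controls and at 599, 846 and 495 CPM in transgene libraries, a log2 fold change of 1.46 (SE 0.48). miR-376c-3p, miR-666-3p, miR-337-5p and miR-758-3p had log2 fold changes of 0.83 to 1.34, and transgene 2 held the highest level of each.

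The pattern ran through the whole region. Every one of its 101 tested members had a log2 fold change above 0 (46.7% of all miRNAs did, and 53.3% were below 0), from 0.09 for miR-434-3p to 2.23 for miR-541-3p, and their median was 0.81. In 62 of them (61.4%) the groups did not overlap. An edgeR unadjusted p under 0.05 was found for 28, all higher, and none passed adjustment. At that threshold 5.24% of all miRNAs were higher, and of the other 854 miRNAs 22 were higher and 34 lower. Among the other 854 miRNAs 345 log2 fold changes were positive and 509 negative, with a median of -0.10, 52 higher (6.09%) and 115 lower (13.5%) without overlap. That split turned with the scale: with total miRNA reads 531 of the 854 were positive and 323 negative, with a median of 0.12, 83 higher and 40 lower without overlap. In the region 101 of 101 were still positive on that scale, 76 of them without overlap. The summed level of the region was 30682, 33229 and 35184 CPM in controls and 51472, 62007 and 44041 CPM in transgene libraries. The region's median was 0.69 to 1.05 over all alternatives tried. The 101 members come from 1 cluster and were measured in the same libraries, so they are not independent observations. The list was chosen with earlier results of these data known.

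The 4 named higher miRNAs from elsewhere were miR-375-3p, miR-7b-5p, miR-142a-5p and miR-26b-3p. miR-375-3p, best known from pancreatic islets, where it limits insulin secretion, was at 388, 616 and 329 CPM in controls and at 2697, 2502 and 9142 CPM in transgene libraries. Every transgene library lay far above every control, and transgene 3 stood apart from the other transgene libraries. The log2 fold change was 3.43 (SE 0.77, edgeR adjusted p = 0.398), and DESeq2 gave an adjusted p of 0.000396.

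miR-7b-5p, whose hairpin lies at chr17:56242988-56243098, was at 45.0, 11.5 and 4.67 CPM in controls and at 629, 595 and 105 CPM in transgene libraries. Controls spanned a wide range and transgene 3 was well below the other transgene libraries, but the groups did not overlap. The log2 fold change was 4.44 (SE 1.64, edgeR adjusted p = 0.529), and DESeq2 gave an adjusted p of 0.0466. miR-7a-5p, an islet and neuronal miRNA with the same seed, was chosen after its values were seen: it was at 2069, 1241 and 1136 CPM in controls and at 5270, 4276 and 2502 CPM in transgene libraries. It did not overlap either, with a log2 fold change of 1.44 (SE 0.76). Because these names differ at 1 base and it is not known how a read that fits either was assigned, the split between them is uncertain. Of the reads under both names, 2.13%, 0.922% and 0.410% were named miR-7b-5p in controls and 10.7%, 12.2% and 4.03% in transgene libraries. The opposite strand of a miR-7a hairpin, miR-7a-2-3p, also chosen after its values were seen, was at 1.73, 2.13 and 4.08 CPM in controls and at 15.0, 18.3 and 12.2 CPM in transgene libraries.

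The list of pancreas and liver miRNAs, to which miR-375-3p belongs, was mixed. Its summed level was 1197, 1630 and 12380 CPM in controls and 4965, 21765 and 10226 CPM in transgene libraries, overlapping and led by miR-122-5p. Of its 7 tested members 5 had positive and 2 negative log2 fold changes. At an edgeR unadjusted p under 0.05, 3 of the 7 were higher (5.24% of all miRNAs were) and 0 lower. Only miR-375-3p had groups that did not overlap (11.9% of all miRNAs were higher without overlap). The acinar pancreas miRNA miR-216a-5p stood at 0.217 to 1.51 CPM in the 6 libraries and miR-216b-5p at 0.125 to 1.07 CPM. miR-802-5p, known from liver and islets, was at 284 CPM in transgene 3, where miR-375-3p was highest, and at 4.38 to 13.3 CPM in the other 5 libraries, and without transgene 3 its log2 fold change went from 3.41 to -0.15. The part of other tissues in the miR-375-3p result was not tested.

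miR-142a-5p, a hematopoietic miRNA (chr11:87756864-87756927), was at 33.1, 33.7 and 28.7 CPM in controls and at 75.7, 166 and 72.3 CPM in transgene libraries. Transgene 2 was the highest, and the other transgene libraries still lay above the controls (log2 fold change 1.72, SE 0.63). The other arm of the hairpin, miR-142a-3p, was at 198, 185 and 128 CPM in controls and at 248, 707 and 215 CPM in transgene libraries, with a log2 fold change of 1.20 that was 0.52 without transgene 2. Other leukocyte miRNAs gave mixed values. The myeloid miR-223-3p had a log2 fold change of 0.30 (SE 0.41) with overlap, and of 9 tested members of the leukocyte list 4 were positive and 5 negative. The lymphoid miR-150-5p, chosen after its values were seen, had one of -1.37 (SE 0.74) with overlap, and 1 library stood apart for it, control 2 at 378 CPM against 32.2 to 73.8 CPM in the other 5.

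miR-26b-3p comes from an intron of the phosphatase gene Ctdsp1 (chr1:74394310-74394394) and is the rarer strand of its hairpin. It was at 14.9, 7.25 and 14.8 CPM in controls and at 49.4, 29.5 and 22.9 CPM in transgene libraries, a log2 fold change of 1.46 (SE 0.40, edgeR adjusted p = 0.479). The abundant strand, miR-26b-5p, was at 5058, 5690 and 4514 CPM in controls and at 6600, 5404 and 4766 CPM in transgene libraries, which overlapped (log2 fold change 0.14, SE 0.18), though not when scaled to total miRNA reads. The log2 ratio of 5p to 3p reads was 8.40, 9.61 and 8.25 in controls and 7.06, 7.52 and 7.70 in transgene libraries, lower in every transgene library.

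**Figure D2:**
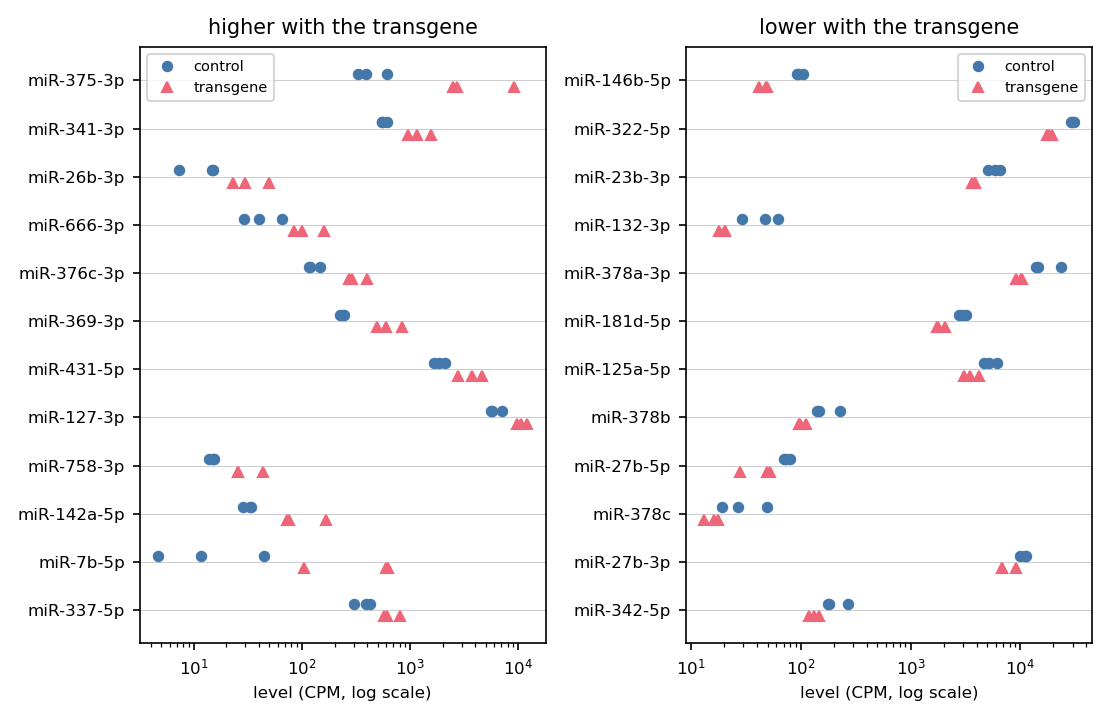
Levels (CPM, log scale) of the 12 named miRNAs that were higher and the 12 that were lower with the transgene, 1 point per library (3 controls as circles, 3 transgene libraries as triangles). Groups do not overlap in any row by the rule of choice, and the widest gap is that of miR-375-3p, at 329 to 616 CPM in controls and 2502 to 9142 CPM in transgene libraries.

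Among the miRNAs that were lower, miR-146b-5p had the smallest p of all 955. It lies in an intron of Mfsd13a (chr19:46342762-46342870) and, like miR-146a-5p, damps Toll-like receptor and interleukin signalling through Traf6 and Irak1. It was at 93.5, 95.2 and 106 CPM in controls and at 49.3, 48.6 and 41.9 CPM in transgene libraries. Each group was tight and a wide gap lay between them, with a log2 fold change of -1.08 (SE 0.20, edgeR adjusted p = 0.398), while DESeq2 gave an adjusted p of 2.5e-05. Over the alternatives it ran from -1.18 to -0.86. miR-146a-5p, with the same seed and differing at 2 of 22 bases, overlapped at 503, 581 and 571 CPM in controls and 538, 447 and 445 CPM in transgene libraries (log2 fold change -0.21, SE 0.19). Their difference was not itself tested.

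miR-322-5p, the mouse counterpart of human miR-424, carries the seed of the miR-15/16 family, which restrains the cell cycle through cyclin targets. It was at 28645, 29812 and 30506 CPM in controls and at 18076, 17638 and 19378 CPM in transgene libraries (hairpin chrX:53054255-53054349). The spread within each group was small beside the gap (log2 fold change -0.69, SE 0.14, edgeR adjusted p = 0.398), and the value ran from -0.76 to -0.47 over the alternatives. Its cluster on the X chromosome was mixed. Of 13 tested members 7 were positive and 6 negative, with a median of 0.05, and miR-322-3p from the same hairpin overlapped at 663 to 1145 CPM (log2 fold change 0.05, SE 0.36). miR-351-5p, the cluster's next most abundant strand, overlapped too, with a log2 fold change of -0.12 (SE 0.29).

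Reads of all names with the seed AGCAGCA, to which miR-322-5p contributed 40.8% to 64.6% in the 6 libraries, were summed as 1 family. In CPM of the reads with a sequence in the table, the family was at 62188, 60201 and 56750 in controls and at 30407, 47989 and 38729 in transgene libraries. The groups did not overlap, and transgene 1 was the lowest (log2 fold change -0.61, SE 0.19, edgeR adjusted p = 0.511), but they overlapped with total miRNA reads. miR-16-5p, the other abundant member, overlapped: it was at 21589, 21236 and 18678 CPM in controls and at 8406, 22255 and 14670 CPM in transgene libraries. Transgene 1 was low for miR-16-5p and for miR-15b-5p, which was at 277 CPM there and at 1679 to 2625 CPM in the other 5 libraries. The log2 fold change of miR-15b-5p went from -0.83 to -0.40 without transgene 1, and that of miR-16-5p from -0.44 to -0.21. Without transgene 2 that of miR-16-5p was -0.76. miR-497a-5p, chosen after its values were seen, did not overlap at 777, 878 and 1035 CPM in controls and 603, 534 and 625 CPM in transgene libraries (log2 fold change -0.61, SE 0.25).

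Of the 12 named lower miRNAs, 3 come from the miR-23b/27b/24-1 cluster of chromosome 13, whose members act in vessel growth and in epithelial differentiation. miR-23b-3p was at 5916, 5074 and 6579 CPM in controls and at 3842, 3594 and 3846 CPM in transgene libraries (log2 fold change -0.64, SE 0.16, edgeR adjusted p = 0.458). miR-27b-3p (hairpin chr13:63300712-63300784) was at 10970, 9950 and 11225 CPM in controls and at 9121, 6831 and 6868 CPM in transgene libraries, a log2 fold change of -0.49 (SE 0.17). Transgene libraries were close together for miR-23b-3p, while transgene 1 was nearer the controls for miR-27b-3p. miR-27b-5p, the rarer strand, had a log2 fold change of -0.79 (SE 0.27), or -0.48 without transgene 2. The paralogous miR-23a-3p and miR-27a-3p also did not overlap, with log2 fold changes of -0.28 (SE 0.21) and -0.32 (SE 0.18). Because miR-27a-3p and miR-27b-3p differ at 1 of 21 bases, the split of reads between them is uncertain. miR-24-3p, made from both clusters, was at 5048, 4145 and 7567 CPM in controls and at 4676, 17716 and 8011 CPM in transgene libraries, with overlap and the opposite sign (log2 fold change 0.86, SE 0.45). Scaled to total miRNA reads, miR-23b-3p and miR-27b-3p had groups without overlap at log2 fold changes of -0.42 and -0.30, while miR-23a-3p and miR-27a-3p overlapped.

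miR-132-3p, induced by the transcription factor CREB and best studied in neurons and vessels, was at 47.6, 29.0 and 62.0 CPM in controls and at 18.1, 20.6 and 20.5 CPM in transgene libraries. The controls were spread and the transgene libraries nearly equal (log2 fold change -1.23, SE 0.32, edgeR adjusted p = 0.458). Its hairpin (chr11:75173682-75173747) neighbours that of miR-212 (chr11:75173388-75173478) in an intron of 1700016P03Rik, and miR-212-3p, with the same seed, was at 178, 163 and 176 CPM in controls and at 127, 107 and 130 CPM in transgene libraries (log2 fold change -0.51, SE 0.26). All 4 strands of these hairpins were negative, with a median of -0.59, and the summed seed family had a log2 fold change of -0.66 (SE 0.24, edgeR adjusted p = 0.511). Scaled to total miRNA reads, miR-132-3p still did not overlap, and miR-212-3p and the summed family did.

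The miR-378 names, of which miR-378a lies within the gene of the mitochondrial coactivator Ppargc1b, were led by miR-378a-3p. It was at 13999, 23247 and 14507 CPM in controls and at 10242, 10268 and 9217 CPM in transgene libraries. Control 2 was the highest library for miR-378a-3p, for miR-378b at 228 CPM and for miR-378c at 49.1 CPM. The log2 fold changes were -0.80 (SE 0.21), -0.75 (SE 0.25) and -1.01 (SE 0.35), and that of miR-378c was -0.59 without control 2. How a read that fits several of these names was assigned is not known, so their changes may not be separate results. With total miRNA reads as the scale, miR-378c and miR-125a-5p were the only ones of the 12 named lower miRNAs whose groups came to overlap.

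The miR-181 family, known for setting signalling thresholds in lymphocytes and also abundant in fetal tissues, was lower in each of its 9 tested strands, with a median of -0.35, and 6 of them did not overlap (53.3% of all miRNAs were lower, and 12% lower without overlap). miR-181d-5p (chr8:84178716-84178787, in an intron of Nanos3) was at 2788, 2959 and 3202 CPM in controls and at 1765, 1738 and 2065 CPM in transgene libraries (log2 fold change -0.68, SE 0.21). It differs from miR-181b-5p at 1 of their first 23 bases, so the split of reads between these names is uncertain. The most abundant member, miR-181a-5p, was at 26498, 30919 and 31684 CPM in controls and at 23629, 17783 and 25837 CPM in transgene libraries (log2 fold change -0.41, SE 0.17). Transgene 2 was the lowest library, and control 1 the lowest control. Summed over the seed ACAUUCA, the family had the smallest p of the 5 named lower families, a log2 fold change of -0.50 (SE 0.14, edgeR adjusted p = 0.511). miR-181a-5p made up 61.4% to 67.5% of the family's reads in every library, so the mix of members was stable. The lack of overlap depended on the scale: with total miRNA reads miR-181d-5p was the 1 strand of 9 that did not overlap, the summed family overlapped and the median was -0.14. Without transgene 2 the median was -0.19.

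miR-125a-5p, a relative of the developmental timing miRNA lin-4 (chr17:17830812-17830879, within Spaca6), was at 4708, 5216 and 6116 CPM in controls and at 3471, 3074 and 4163 CPM in transgene libraries (log2 fold change -0.58, SE 0.19). miR-342-5p, from an intron of the actin regulator gene Evl (chr12:108658620-108658718), was at 179, 269 and 180 CPM in controls and at 146, 120 and 131 CPM in transgene libraries (log2 fold change -0.66, SE 0.24). miR-342 lies on chromosome 12 outside the Dlk1-Dio3 cluster, and its direction was the opposite of the cluster's. miR-221-3p and miR-222-3p, which target the cell cycle inhibitor p27, are neighbours on the X chromosome (chrX:19146294-19146388 and chrX:19146893-19146971). All 4 strands of their hairpins were lower without overlap (12% of all miRNAs were), with a median of -0.40, and with total miRNA reads 1 of the 4 did not overlap.

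Summed by seed, 674 families were tested, 123 of them with more than 1 name. None passed edgeR's test after adjustment (0%), and 63 had an unadjusted p under 0.05 (9.35%), 37 higher (5.49%) and 26 lower (3.86%). The groups did not overlap for 167 families (24.8%), 78 of them higher (11.6%) and 89 lower (13.2%). By the rule that names the 5 higher and 5 lower families with the smallest p at a mean of at least 10 CPM without overlap, the lower ones were those of miR-181 and of miR-322 and miR-16 and the single strands miR-27b-5p, miR-378b and let-7d-3p. The higher ones were single strands, miR-341-3p, miR-666-3p, miR-369-3p, miR-142a-5p and miR-431-5p. Names without a matched sequence, miR-375-3p, miR-23b-3p and miR-376c-3p among them, entered no family and so could not be ranked here. The let-7 family, with 10 names the largest and known for its role in ending progenitor states, overlapped at 209844, 207706 and 190826 CPM in controls and 232720, 152109 and 156034 CPM in transgene libraries (log2 fold change -0.17, SE 0.19).

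The 10 most abundant miRNAs of the controls included 5 whose groups did not overlap, all lower: miR-10a-5p, let-7i-5p, miR-143-3p, miR-181a-5p and miR-322-5p. Over all miRNAs 12% were lower without overlap, and of the 99 averaging at least 1000 CPM 31 were. let-7i-5p was at 41168, 38654 and 39231 CPM in controls and at 31120, 26296 and 29701 CPM in transgene libraries (log2 fold change -0.45, SE 0.16, or -0.24 with total miRNA reads). miR-143-3p, a smooth muscle and stromal miRNA, was at 31764, 29702 and 36609 CPM in controls and at 29137, 19858 and 28889 CPM in transgene libraries, where control 2 and transgene 1 nearly met. With total miRNA reads let-7i-5p and miR-322-5p still did not overlap, and the other 3 did. miR-26a-5p, miR-126a-3p, let-7a-5p, miR-99b-5p and miR-451a overlapped, with log2 fold changes of -0.25, -0.26, 0.07, -0.03 and 0.44. That of miR-99b-5p was 0.17 with total miRNA reads, and that of let-7a-5p was -0.28 without transgene 1. Leaving out transgene 1 gave 0.02 for miR-451a, leaving out control 3 gave 0.11 and leaving out transgene 3 gave 0.85. For miR-26a-5p the value was -0.48 with transgene 1 left out, -0.08 with transgene 2 left out and -0.14 with transgene 3 left out. Leaving out transgene 2 also moved miR-126a-3p to -0.10, miR-143-3p from -0.33 to -0.10 and miR-10a-5p from -0.65 to -0.41.

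Among kidney epithelial miRNAs, miR-194-5p, made from hairpins beside miR-192 and miR-215, was chosen after its values were seen. It was at 639, 754 and 1106 CPM in controls and at 40.6, 374 and 350 CPM in transgene libraries, and transgene 1 lay far below the other transgene libraries (log2 fold change -1.71, SE 0.67, edgeR adjusted p = 0.529). miR-192-5p overlapped (log2 fold change -0.50, SE 0.38), and its value ran from -0.84 to -0.06 with 1 library left out. Of the 8 tested members of the tubule list, 2 were lower without overlap (12% of all miRNAs were). miR-203-3p and miR-205-5p, epithelial miRNAs, were both lower without overlap (12% of all miRNAs were). miR-203-3p was at 484, 497 and 533 CPM in controls and 391, 340 and 395 CPM in transgene libraries (log2 fold change -0.43, SE 0.20). miR-205-5p was at 263, 289 and 214 CPM in controls and 150, 214 and 210 CPM in transgene libraries (log2 fold change -0.42, SE 0.27). For miR-205-5p control 3 and transgene 2 nearly met. With total miRNA reads none of the 4 strands of these hairpins was free of overlap. miRNAs whose precursors are made without DROSHA, such as miR-484, miR-320 and mirtrons, gave 4 positive and 3 negative log2 fold changes, with a median of 0.00. None of these 7 was without overlap (24% of all miRNAs were), and 7 are too few to read an absence from. Their median was 0.24 with total miRNA reads, beside 0.18 for all miRNAs. miR-484, whose precursor is a capped transcript, was at 2103, 2417 and 2400 CPM in controls and at 1981, 2304 and 2804 CPM in transgene libraries.

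**Figure D3:**
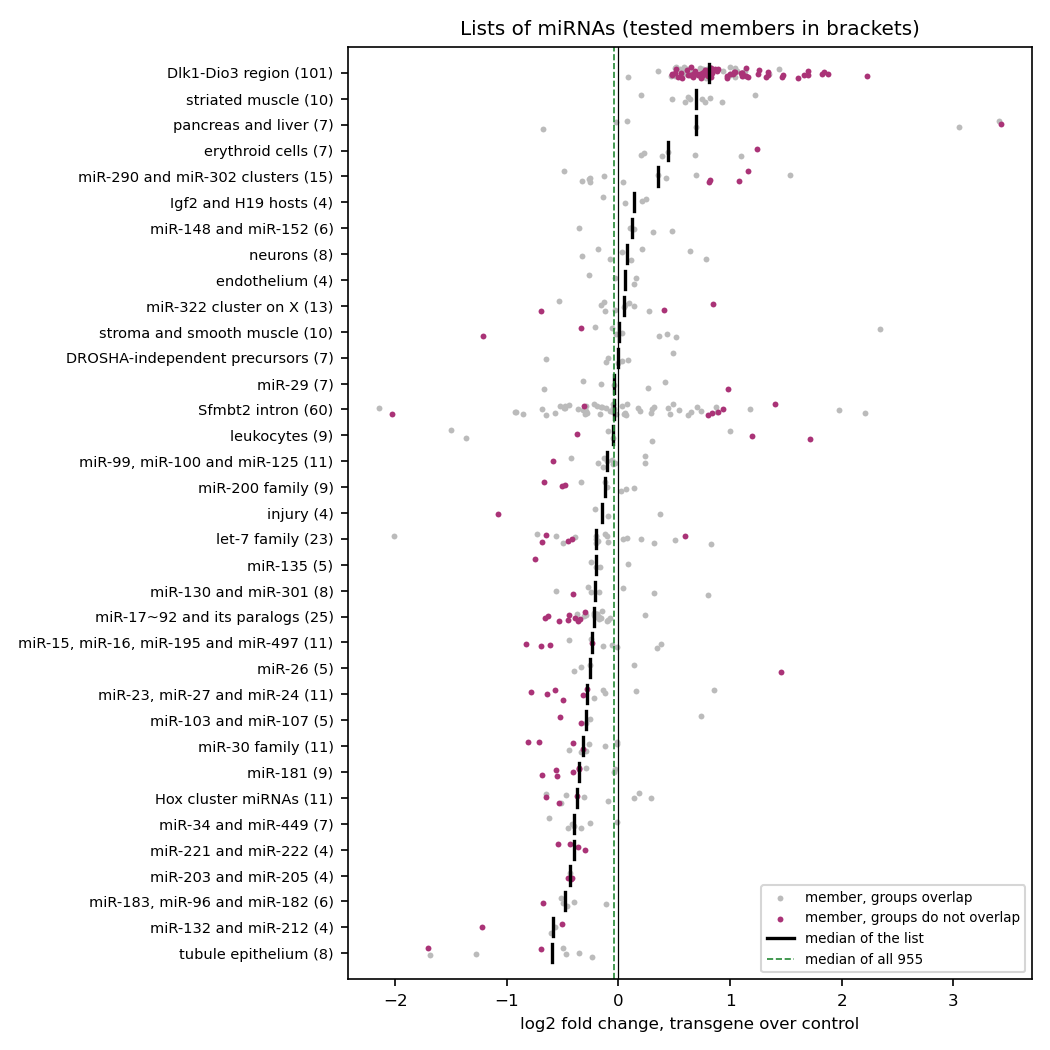
Log2 fold changes of the members of 35 lists of miRNAs, 1 point per tested member, with the list median as a black bar and the median of all 955 (-0.04) as a dashed line. The Dlk1-Dio3 region stands at the top with 101 of 101 members above 0 and a median of 0.81, and the tubule list stands at the bottom with 8 of 8 members below 0 and a median of -0.60.

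miR-199a-3p and miR-199b-3p, strands of mesenchyme and stroma, are 1 sequence under different names, and their fold changes went in opposite directions. miR-199a-3p was listed at 1642, 3600 and 4493 CPM in controls and at 27129, 18217 and 4122 CPM in transgene libraries, a log2 fold change of 2.35 (SE 0.82). miR-199b-3p was listed at 23693, 23767 and 22322 CPM in controls and at 5296, 3275 and 21541 CPM in transgene libraries, a log2 fold change of -1.21. The name miR-199a-3p took 6.48%, 13.2% and 16.8% of their reads in controls and 83.7%, 84.8% and 16.1% in transgene libraries, so transgene 3 was like the controls. Summed, the sequence was at 25335, 27367 and 26815 CPM in controls and at 32425, 21492 and 25663 CPM in transgene libraries, a log2 fold change of -0.00020. The names let-7a-1-3p and let-7c-2-3p share 22 bases in the same way, and let-7a-1-3p took 99.1%, 90.3% and 2.71% of the reads in controls and 1.05%, 88.6% and 9.69% in transgene libraries. Differences of these names are therefore read here only as sums, though the counts over all miRNAs, lists and hairpins include each name singly.

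**Figure D4:**
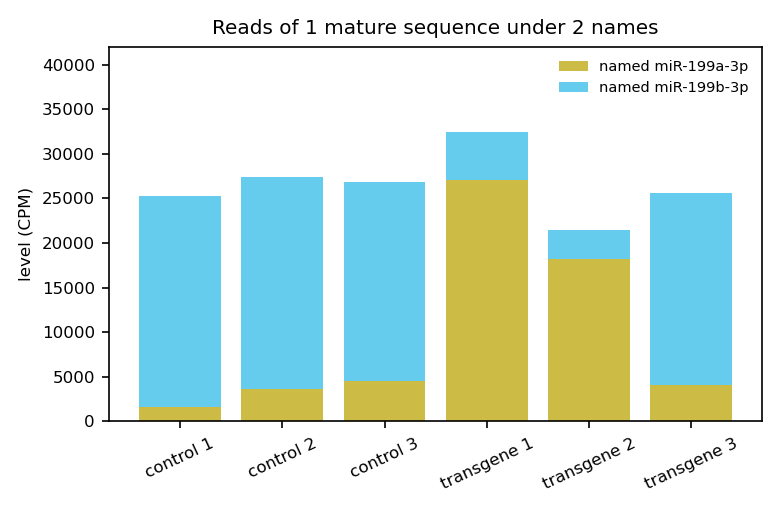
Stacked levels (CPM) of the reads named miR-199a-3p and miR-199b-3p in each of the 6 libraries. The total height stays between 21492 and 32425 CPM, while transgene 1 and transgene 2 carry most reads under miR-199a-3p and the other 4 libraries under miR-199b-3p.

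Marker lists of other cell types ranged widely among libraries of 1 group. Over all miRNAs 46.7% of log2 fold changes were above 0 and 53.3% below, and 24% of miRNAs did not overlap. The striated muscle list had 10 of 10 log2 fold changes above 0 and a median of 0.69, but its sum was 1266, 295 and 224 CPM in controls and 1660, 836 and 479 CPM in transgene libraries, and no member was free of overlap. Without control 3 or without transgene 1 its median was 0.34, and without control 1 it was 1.27. The erythroid list had 7 of 7 positive, with a median of 0.44. Of the 7, 1 was higher without overlap (11.9% of all miRNAs were). The sum of the list was 52822, 48998 and 21504 CPM in controls and 80512, 60913 and 27433 CPM in transgene libraries. Leaving out transgene 1 gave a median of 0.20, leaving out control 3 one of 0.27 and leaving out transgene 3 one of 0.85. The endothelial list, led by miR-126a-3p, overlapped in all 4 members. Of the 8 lists plotted, the tubule list alone had sums without overlap, 4374, 4239 and 6694 CPM in controls against 3008, 3544 and 2698 CPM in transgene libraries, with 8 of 8 members negative, and with total miRNA reads these sums overlapped too. The part of these tissues in the differences above was not tested.

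**Figure D5:**
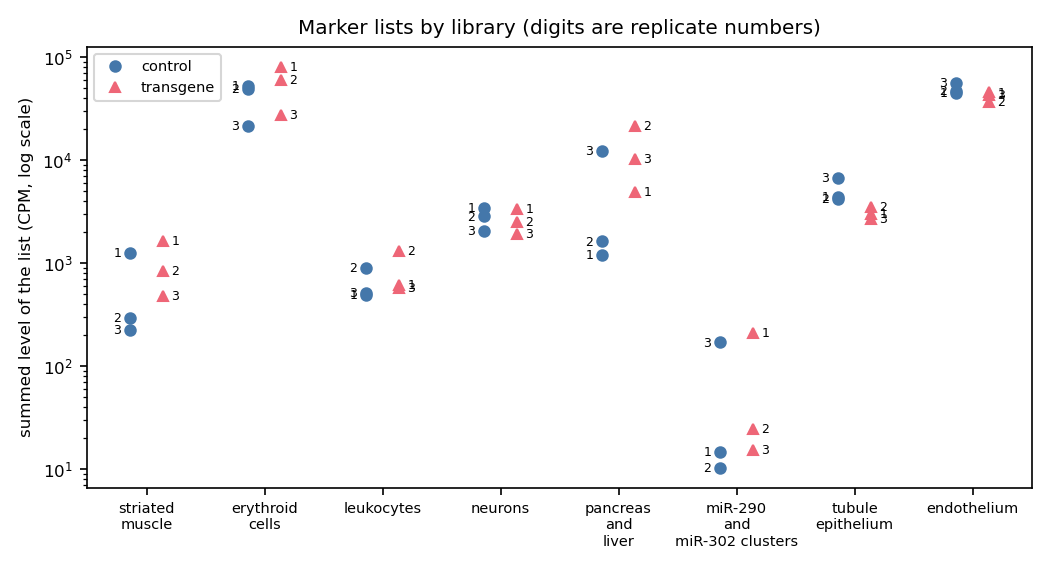
Summed level (CPM, log scale) of 8 lists of marker miRNAs in each library, controls as circles and transgene libraries as triangles with the replicate number beside each point. Control 3 and transgene 1 stand out in the miR-290 and miR-302 list at 170 and 213 CPM, and only the tubule list separates the groups on this scale (2698 to 3544 CPM against 4239 to 6694 CPM).

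The arms of hairpins were also compared, since the cuts of DROSHA and Dicer set both ends of the duplex. Over 429 hairpins with reads from both arms, the median log2 ratio of 5p to 3p reads was 0.03, 0.15 and 0.14 in controls and 0.06, -0.16 and -0.11 in transgene libraries. The groups overlapped through transgene 1 and control 1, and the difference of means was -0.18 (exact two-sided permutation p = 0.2). The smallest p that 3 against 3 libraries allow is 0.1. The ratio of the major to the minor arm had a median log2 of 4.11, 4.17 and 4.27 in controls and 4.02, 3.98 and 3.94 in transgene libraries, a difference of -0.20 without overlap (exact two-sided permutation p = 0.1). That difference was 0.02 when both arms had to average 50 CPM, and also 0.02 with a pseudocount of 5. The ratio of 5p to 3p did not overlap between groups for 24 hairpins that were higher (5.59%) and 23 that were lower (5.36%). Reads named to a hairpin outside its mature strands made up 0.00140%, 0.000933% and 0.00129% of miRNA reads in controls and 0.00162%, 0.00147% and 0.00115% in transgene libraries (exact two-sided permutation p = 0.4).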

How the data were processed

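Small RNA was sequenced in 3 control, 3 transgene and 3 knockout kidney libraries. The deposited values are whole-number counts of reads per small RNA name, per the file headers, and add up to the total each header states. Per the submitters' processing notes, CASAVA 1.8, Bowtie2 and mm10 were used, with no role or order stated. The rule for reads that fit several names is not given in the sources read.

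Mature and hairpin counts of each name starting with mmu- were added and fitted over all 9 libraries with edgeR 4.0.16 in R 4.3.3 (TMM, filterByExpr, group as a factor, quasi-likelihood F test, Benjamini-Hochberg adjustment, threshold 0.05). TMM factors ran from 0.882 to 1.13 in the 6 libraries compared, the common biological coefficient of variation was 0.489, and the SE is the log2 fold change divided by the square root of F. DESeq2 1.42.0, other scalings, no filter, the 6 libraries alone, mature rows only, identical sequences summed, a replicate block and each library left out were alternatives. Arm ratios used a pseudocount of 1 and hairpins with at least 10 reads over both arms in every library, and were compared with exact permutation tests in SciPy 1.17.1. The fit was also run on counts simulated from its own control means and estimates of spread, which cannot show whether it suits these libraries.

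The text names, beside any miRNA past the threshold, the 12 higher and 12 lower miRNAs with the smallest unadjusted p among those averaging at least 10 CPM without overlap, the 10 most abundant of the controls, and 2 examples for lists. The members and lists were chosen with earlier results of these data known. Sequences (798 of the 955 matched) and loci (756 matched) came from RefSeq GRCm38.p6, and 525 of 527 loci had the same coordinates in GENCODE vM21, which gave host genes. Reads carry no molecular identifiers.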

Additional observations from a re-analysis of the deposited data

How the results depend on the processing

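Of the counts, none of the 955 miRNAs was called in 17 of 18 alternatives, and DESeq2 called 4. The 84 miRNAs at unadjusted p under 0.05 became 154 with the 6 libraries alone and 37 to 155 with 1 library left out, and the 229 without overlap became 227 to 424, where fewer libraries make a lack of overlap more common. For seed families these ranges were 22 to 74 and 201 to 301. With 1 library left out, the log2 fold change of let-7a-5p ran from -0.28 (without transgene 1) to 0.28, of miR-99b-5p from -0.24 to 0.16, of miR-26b-5p from -0.055 to 0.31, of miR-802-5p from -0.15 to 3.996 and of miR-484 from -0.069 to 0.12. For miR-99b-5p it was also 0.17 with total miRNA reads, 0.11 with all counted reads, 0.021 with no filter and 0.063 with the 6 libraries alone. For miR-199a-3p it was -0.00020 with identical sequences summed. The difference in the median 5p to 3p ratio, -0.18, was 0.0045 with both arms at 50 CPM, and the major to minor ratio, an analysis added after the data were seen, was 0.020 with a pseudocount of 5 and 0.017 at 50 CPM. The cause of these changes was not tested. The deviations of same-numbered control and transgene libraries had r = -0.11, 0.03 and -0.13. These values cannot tell whether equal numbers mark a shared litter or batch, which was not tested. With the replicate number as a block, 0 miRNAs were called and 65 had an unadjusted p under 0.05. Groups of 3 limit the exact tests to p = 0.1.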

Other observations

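Some miRNAs marked single libraries rather than a genotype, and all of these were chosen after their values were seen. miR-465a-3p had the highest log2 fold change of the 955, 6.496, and miR-465b-3p the lowest, -4.11, but with miR-465c-3p they are 1 sequence under different names. Summed, these strands of an X-linked cluster known from testis were at 1.26, 1.0 and 21.7 CPM in controls and at 33.3, 0.524 and 0.550 CPM in transgene libraries. The libraries high for this sequence, control 3 and transgene 1, are those high for the miR-290 and miR-302 list at 170 and 213 CPM. miR-378d was at 1.63 CPM in transgene 2 and at 121 to 316 CPM in the other 5 libraries, although miR-378a-3p was at 10268 CPM in transgene 2.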
